A study of Arabidopsis thaliana with 9 samples.

Results

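The genes described here rose within 6 h of PAN induction in Arabidopsis thaliana roots and had fallen again by 24 h, some of them only part of the way. They were chosen by their measured values: a row had to name a single locus, average at least 5 FPKM (fragments counted per length of transcript and per depth of library) over the 3 times, rise by at least 0.8 on the log2(FPKM + 1) scale from 0 to 6 h and fall by at least 0.8 from 6 to 24 h. PAN itself was left out. Of 33201 rows in the table, 82 genes met the rule, out of 13055 single-locus rows at that minimum mean. Without the minimum mean 155 single-locus rows met both changes, and 13 of the 82 reached it although they were below 5 FPKM at both 0 and 24 h. Because these values selected the genes, their rise and fall are given as a description and carry no test.

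The 9 libraries came from Col-0 plants carrying XVE:PAN, a transgene through which β-estradiol switches on PAN. Seedlings grew for 5 days in all on medium that held 1% sucrose, while 10 uM β-estradiol was present in the medium for the last 0, 6 or 24 h, with 3 replicates per time. Both later groups therefore differ from the 0 h group in transfer and in β-estradiol as well as in PAN, and neither a mock-treated group nor a line without the transgene is among the samples used here, so these cannot be told apart. The promoter that drives XVE is not named in the labels. The labels name the whole root as the source, whereas their extraction protocol describes cutting at about 0.5 cm from the tip. Each gene has 1 pooled value per time, so no SD or replicate spread can be given, and read totals per library are not given in the sources used here.

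PAN (PERIANTHIA) is a bZIP transcription factor of the TGA class, which binds DNA around the letters TGACG and is best known from floral patterning and from the stem cell niche of the root. Roots respond to nutrients, wounding, microbes and hormones with fast waves of transcription, in which receptor kinases, calcium sensors and WRKY factors commonly act early. WRKY proteins bind the W-box, and their activity is tuned by VQ-motif partners. Many such waves subside while the stimulus is still present.

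PAN was listed at 1.03, 688 and 385 FPKM after 0, 6 and 24 h. The induced transcript was therefore still far above its starting level at 24 h, but it had also come down from 6 h. Its fall was -0.83 on the log2(FPKM + 1) scale, so PAN itself met both changes of the rule. A gene is named as called where the authors' deposited table gives it a q-value below 0.05. PAN was called lower from 6 to 24 h. Over all 13055 rows 3.81% were called higher by 6 h and 8.31% lower, and 24.3% were called higher and 27.9% lower at 24 h against 0 h. Marker genes of cell types moved over the same times and none of them is among the 82. In the dividing cell list the summed level was 69.3 FPKM at 0 h, 90.09 at 6 h and 181 at 24 h, with 3 of 8 genes called higher at 6 h and 8 of 8 at 24 h against 0 h. The root hair and epidermis list summed to 2811, 2302 and 1668 FPKM, with 2 of 9 called lower at 6 h and 7 at 24 h. The root cap list, with 3 of 5 genes above the minimum mean and FEZ below 1 FPKM throughout, summed to 97.3, 94.5 and 40.9 FPKM, and all 3 were called lower at 24 h against 0 h. The endodermis list summed to 1867, 1352 and 1317 FPKM, with 3 of 7 called lower at 6 h. The vascular list stayed between 41.0 and 48.0 FPKM, with VND7, VND6 and NAC086 below 1 FPKM throughout. The part of these shifts in the results was not tested, and in whole-tissue RNA fewer cells of a type and less RNA per cell cannot be told apart.

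Promoter sequences are shown first for 4 genes whose windows hold several copies of the motifs counted below. WAKL4 and WAKL5 encode wall-associated receptor kinases, AT2G43620 encodes a chitinase family protein, and WRKY30 encodes a WRKY factor. Each sequence is the 250 bases before the annotated start in the TAIR10.1 assembly of RefSeq, written 5′ to 3′ on the gene's strand. Capitals mark the TGA core TGACG, and the W-box spelled TTGACC or spelled TTGACT, on either strand. WAKL4 is read from the plus strand of chr1:5532048-5532297 and WAKL5 from the plus strand of chr1:5535516-5535765. AT2G43620 is read from the minus strand of chr2:18095094-18095343 and WRKY30 from the minus strand of chr5:8154711-8154960.
WAKL4: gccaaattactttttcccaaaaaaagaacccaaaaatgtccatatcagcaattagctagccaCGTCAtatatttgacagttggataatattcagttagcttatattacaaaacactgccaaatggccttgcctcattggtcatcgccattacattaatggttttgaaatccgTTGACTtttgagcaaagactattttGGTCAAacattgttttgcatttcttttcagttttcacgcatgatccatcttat
WAKL5: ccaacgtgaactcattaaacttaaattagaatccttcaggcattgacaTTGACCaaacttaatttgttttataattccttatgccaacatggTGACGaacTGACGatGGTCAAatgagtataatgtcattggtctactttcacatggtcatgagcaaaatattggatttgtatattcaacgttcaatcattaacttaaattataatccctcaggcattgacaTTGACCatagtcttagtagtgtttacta
AT2G43620: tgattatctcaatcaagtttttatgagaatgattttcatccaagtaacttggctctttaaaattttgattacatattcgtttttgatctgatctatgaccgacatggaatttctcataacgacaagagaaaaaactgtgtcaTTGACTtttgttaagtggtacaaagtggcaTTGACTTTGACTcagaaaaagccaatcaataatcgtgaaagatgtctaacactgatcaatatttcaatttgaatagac
WRKY30: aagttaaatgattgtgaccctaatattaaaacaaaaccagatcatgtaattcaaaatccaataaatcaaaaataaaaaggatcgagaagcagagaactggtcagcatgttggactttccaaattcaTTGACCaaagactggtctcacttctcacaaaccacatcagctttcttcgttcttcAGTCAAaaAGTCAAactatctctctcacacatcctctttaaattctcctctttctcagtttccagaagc

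The rise had a median of 1.17 on the log2(FPKM + 1) scale and the fall a median of -1.30, against medians of -0.00 and -0.00 over all 13055 rows. The median level of the 82 genes was 8.90, 22.6 and 8.01 FPKM at the 3 times. Over all rows it was 20.9, 20.5 and 20.2 FPKM, so the median gene of the 82 stood below the median of all rows at 0 and 24 h and near it at 6 h. Of the 82, 76 were called higher at 6 h, against 3.81% of all rows called higher and 8.31% called lower. At 24 h against 6 h, 77 of the 82 were called lower, against 22.8% of all rows called lower and 20.9% called higher. All 76 genes called at 6 h were also called lower from 6 to 24 h, a pair of calls made for 1.65% of all rows. The rule used both contrasts, so nothing is read from these counts.

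Altogether 255 rows rose by at least 0.8 at 6 h, and the 82 are the part that fell back by the threshold. Of the other 173, 49 rose by a further 0.8 by 24 h. KUP6 at 0.81, ACS2 at 0.81 and AT4G35270 at 0.81 stood just inside the threshold for the rise on the log2(FPKM + 1) scale. AT3G16220 at 0.79, AT1G52342 at 0.78 and AT1G20640 at 0.77 stood just outside it. For the fall, AT5G37980 at -0.81, FAR5 at -0.83 and AT1G30700 at -0.84 stood just inside, and CHX17 at -0.7998, CALS1 at -0.79 and AT3G45410 at -0.79 just outside. Genes at either edge had nearly the same course, so the border of the group is not a break in the data. The plot of early against late change shows the 82 as the corner of a continuous cloud.

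**Figure D1:**
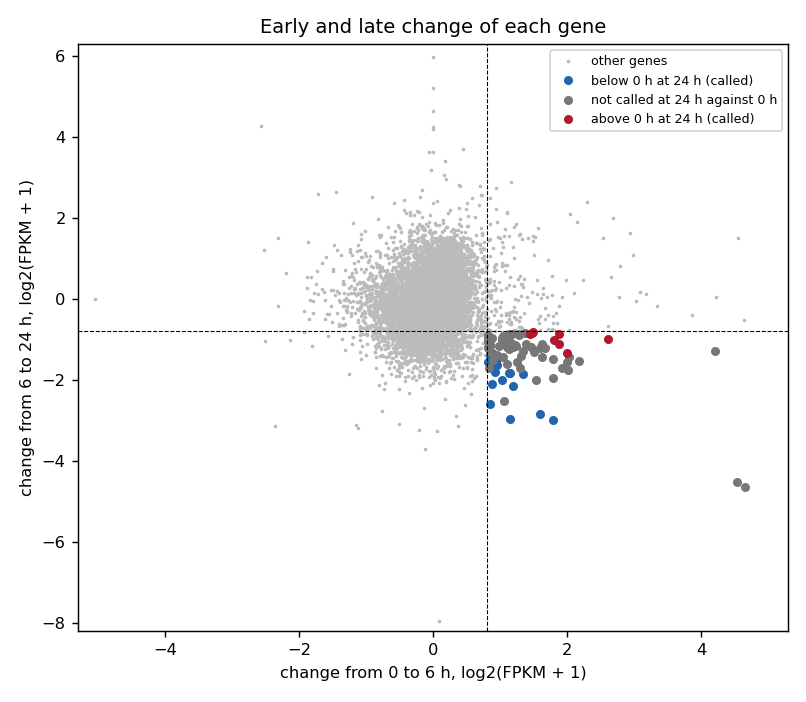
Change of each gene from 0 to 6 h (x axis) against its change from 6 to 24 h (y axis), both on the log2(FPKM + 1) scale of pooled values. Small grey points are the other genes among the 13055 rows, large points are the 82 genes coloured by the authors' call at 24 h against 0 h, and dashed lines mark the thresholds of 0.8 and -0.8.

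The rule does not fix where a gene ended relative to its start, and the 82 genes divided on this point. At 24 h against 0 h, 18 were called lower, 8 were called higher and 56 were not called. Over all rows 27.9% were called lower and 24.3% higher in that comparison, so the shares among the 82, 21.95% and 9.76%, were both smaller. The difference between 24 and 0 h had a median of -0.07 on the log2(FPKM + 1) scale, against -0.02 over all rows. By value alone 44 genes ended below and 36 above their start, and 23 genes (28.0%) ended within 0.2 of it, against 19.9% of all rows. The comparison shares its 0 h and 24 h values with the rule, so it describes the genes and does not test them. At a q-value below 0.01 in the authors' deposited table, 10 were called lower and 5 higher.

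Genes called below their start at 24 h had, at the median, a smaller rise than those called above it. The 18 called lower had a median rise of 0.95 on the log2(FPKM + 1) scale and ended at a median of -0.72 relative to 0 h. The 8 called higher had a median rise of 1.84 and ended at 0.73. The 56 not called had a median rise of 1.18 and ended at 0.02. The ordering follows in part from the rule itself, which admits a small rise only with a complete fall. The plot of the 3 courses shows different depths of return, while the rise and fall they share was set by the rule.

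**Figure D2:**
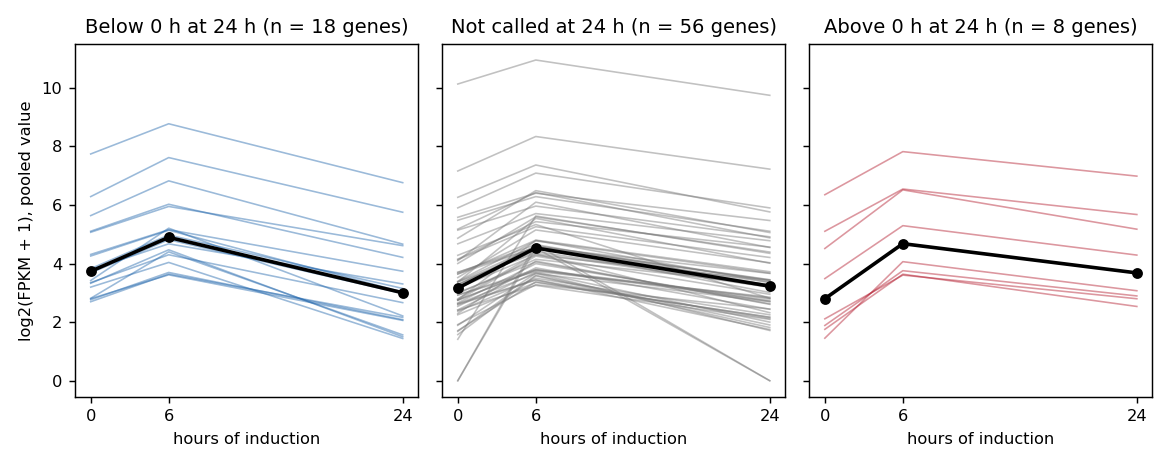
Course of each of the 82 genes over 0, 6 and 24 h of induction (x axis, hours) as log2(FPKM + 1) of the pooled value (y axis), in panels by the authors' call at 24 h against 0 h: 18 called lower, 56 not called and 8 called higher. Thin lines are genes and the black line with points is the median over the genes of a panel.

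Nitrate and nitrogen genes formed the role group with the lowest median difference between 24 and 0 h, -0.98 on the log2(FPKM + 1) scale. The 5 members all ended below 0 h by value, as did 6667 of all 13055 rows. Of the 5, 4 were called lower, as were 27.9% of all rows. The role groups were formed after the values were seen, so nothing is read from these counts. NRT2:1, the inducible high-affinity nitrate transporter of the root, was at 9.72 FPKM at the start, 36.0 at the peak and 3.64 in the end. Its peak was thus 3.70 times its start and 9.89 times its end. NRT1.1, a dual-affinity transporter that is also a nitrate sensor, was at 213, 437 and 108 FPKM. GSR2, which encodes a cytosolic glutamine synthetase and was the most abundant of the 82, was at 1120, 1978 and 858 FPKM and was not called at 24 h against 0 h (q-value 0.301 in the authors' deposited table). Both remaining members encode RWP-RK proteins of the NIN-like class, whose best-known member NLP7 is a nitrate sensor and regulator. AT2G43500 was at 8.17, 15.4 and 1.72 FPKM, so its 24 h value was the furthest below 0 h of this group, by -1.75 on the log2(FPKM + 1) scale. AT4G35270 was at 5.98, 11.3 and 3.17 FPKM, and its difference of -0.74 between 24 and 0 h became -0.23 when the trend of change with transcript length was removed. By product name 5 RWP-RK genes lay above the minimum mean, a count that does not hold NLP7, which carries another product name. Among the 5, AT1G20640, just outside the rule, was at 16.7, 29.2 and 10.6 FPKM, whereas AT1G64530 was already called lower at 6 h, at 33.9, 19.1 and 11.3 FPKM.

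A wider list of nitrate response and assimilation genes also ended below its start at the median, but its median hardly changed at 6 h. Of its 28 measured genes 7 were called higher by 6 h, and 5 were called lower. From 6 to 24 h the counts were 3 and 14, and at 24 h against 0 h they were 5 and 17. The shares of all rows called higher and lower were 3.81% and 8.31% by 6 h, 20.9% and 22.8% from 6 to 24 h, and 24.3% and 27.9% at 24 h against 0 h. Its median changes were 0.03 at 6 h and -0.58 from 6 to 24 h on the log2(FPKM + 1) scale. At 24 h against 0 h its median change was -0.69, against -0.02 over all rows. NIA2, a nitrate reductase, was at 133, 133 and 30.5 FPKM, and NIR1, the nitrite reductase, was at 197, 210 and 77.2 FPKM. Both were called lower at 24 h without having been called at 6 h. NIA1, the other nitrate reductase, was at 15.2, 9.45 and 1.88 FPKM and was called lower at each step. NLP7 was at 32.1, 22.9 and 9.71 FPKM and was called lower at each step. WR3, an accessory protein of high-affinity nitrate uptake that pairs with NRT2:1, was at 143, 312 and 244 FPKM and stayed high. BT2, a BTB and TAZ domain protein that lowers NRT2 expression, was at 11.4, 28.3 and 105 FPKM and was called higher at each step. LBD38 and LBD39, repressors of nitrate-responsive genes, were at 91.3, 134 and 141 FPKM and at 27.7, 41.6 and 66.4 FPKM. Their relative LBD37 was at 120, 107 and 61.6 FPKM and was called lower at 24 h. Among other transporters, NRT1.5 was at 8.07, 8.12 and 6.12 FPKM and was not called, and NRT2.4, below the minimum mean, was at 0.672, 2.90 and 1.16 FPKM. Neither the transporters nor the LBD repressors thus moved as a class.

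The promoter of NRT2:1 is given because its gene had the largest fall of the nitrogen group. It is read from the plus strand of chr1:2523773-2524022, with capitals as above, and holds 1 W-box and no TGACG.
NRT2:1: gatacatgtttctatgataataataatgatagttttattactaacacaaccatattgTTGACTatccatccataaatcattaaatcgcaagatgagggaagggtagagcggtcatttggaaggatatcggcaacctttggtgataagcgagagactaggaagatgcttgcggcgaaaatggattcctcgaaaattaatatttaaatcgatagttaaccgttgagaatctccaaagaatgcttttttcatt

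A set of 5 WRKY factors and a VQ protein made up the second group of regulators, and they ended on both sides of their start. Their differences between 24 and 0 h ran from -0.57 to 0.51 on the log2(FPKM + 1) scale. Of the 6, 3 were below 0 h and 1 was called lower, as were 27.9% of all rows. With the length trend removed all 6 were below 0 h, with a median of -0.09. WRKY30, a defence and stress factor, had the largest rise in the group, at 2.22 FPKM at 0 h, 11.1 at 6 h and 2.74 at 24 h. WRKY75, known from phosphate starvation, root hair growth and senescence, was at 10.5, 34.5 and 15.3 FPKM. WRKY33, a main regulator of camalexin synthesis and of resistance to necrotrophic fungi, was at 46.9, 83.6 and 43.3 FPKM. These 3 factors span very different levels, and the rise and fall they share was set by the rule. WRKY29, a factor downstream of flagellin perception, was at 11.96, 24.1 and 8.58 FPKM. WRKY31 was at 18.9, 34.7 and 12.4 FPKM and was the one called lower (q-value 0.0152 in the authors' deposited table). The VQ-motif gene AT4G20000 was at 16.8, 42.2 and 22.7 FPKM.

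Most of the other WRKY genes called higher at 6 h, though not all, were still above their start at 24 h. Of 38 WRKY genes above the minimum mean, 13 were called higher by 6 h and 3 were called lower, against 3.81% and 8.31% of all rows, and the 5 named above are among the 13. WRKY72 at 27.9, 46.8 and 27.8 FPKM was called lower again by 24 h but missed the threshold, and WRKY26 at 6.57, 10.065 and 6.69 FPKM was not called lower. The other 6 of the 13 were called higher at 24 h against 0 h. WRKY70, a salicylate-responsive factor, was at 6.12, 18.16 and 16.9 FPKM. WRKY38 was at 2.39, 8.53 and 27.2 FPKM, and WRKY40, a repressor of early defence genes, was at 9.54, 19.3 and 75.03 FPKM. The last pair more than doubled again as the transient genes fell. WRKY22 was at 3.59, 8.60 and 14.4 FPKM, WRKY51 at 6.37, 15.2 and 22.7 FPKM, and WRKY15 at 10.4, 20.7 and 24.4 FPKM.

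The promoter of WRKY33, read from the plus strand of chr2:16107985-16108234, carries a W-box of each spelling and no TGACG. Of the 5 WRKY genes described here, 4 hold a W-box in their window: WRKY33, WRKY30, WRKY29 and WRKY75. Over windows of 300 bases, 34.0% of all protein-coding genes hold one, and nothing is read from so small a count.
WRKY33: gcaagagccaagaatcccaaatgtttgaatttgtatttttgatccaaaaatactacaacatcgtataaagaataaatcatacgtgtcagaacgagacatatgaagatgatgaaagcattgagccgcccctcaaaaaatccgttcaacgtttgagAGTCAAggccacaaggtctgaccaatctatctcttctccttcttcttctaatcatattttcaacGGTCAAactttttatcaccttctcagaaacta

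The other transcription factor genes numbered 9. At 24 h against 0 h, 2 were called lower and 1 higher, against 27.9% and 24.3% of all rows. FRU, the bHLH factor also known as FIT that directs iron uptake in the epidermis, was at 142, 323 and 149 FPKM and so returned to its start. Its known targets did not rise with it: the iron transporter IRT1 was at 42.5, 23.1 and 53.6 FPKM and the ferric reductase FRO2 at 11.4, 5.80 and 8.66 FPKM, both called lower at 6 h. Over the 8 measured genes of the iron deficiency list, 1 was called higher at 6 h and 2 were called lower, against 3.81% and 8.31% of all rows. The 1 called higher was FRU, which the rule chose on that contrast. From 6 to 24 h 2 were called higher and 5 lower, FRU among the latter, against 20.9% and 22.8% of all rows. MYB45 was at 48.8, 112 and 24.4 FPKM and ended below its start. HB-7, a homeodomain-leucine zipper factor induced by abscisic acid and drought, was at 2.70, 12.5 and 6.44 FPKM and was the 1 called higher at 24 h. HAT9, also a homeodomain-leucine zipper factor, was at 8.66, 21.7 and 9.23 FPKM and was not called at 24 h against 0 h. These 2 genes of a broad family thus differed in their call in that comparison. MYB51, a regulator of indole glucosinolate synthesis, was at 4.30, 8.57 and 3.27 FPKM. NAC046, known from senescence and chlorophyll breakdown, was at 34.3, 61.4 and 29.1 FPKM, and the GRAS protein SCL1 at 24.6, 51.3 and 26.5 FPKM. The MADS-box gene AT3G05860 was at 9.21, 18.7 and 5.35 FPKM and was called lower at 24 h against 0 h, and the C2H2 zinc finger gene AT3G46080 was at 11.5, 22.2 and 7.07 FPKM. AT3G46080 had the densest run of TGACG among the printed promoters, with 4 copies in 250 bases read from the minus strand of chr3:16923300-16923549.
AT3G46080: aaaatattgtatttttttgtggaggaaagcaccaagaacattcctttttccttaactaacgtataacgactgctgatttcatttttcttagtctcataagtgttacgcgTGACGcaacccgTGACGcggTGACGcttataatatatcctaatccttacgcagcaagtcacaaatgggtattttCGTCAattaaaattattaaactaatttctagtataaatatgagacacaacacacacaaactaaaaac

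Receptor and signalling kinases numbered 7, and 2 were called lower at 24 h against 0 h, as were 27.9% of all rows. AT1G05700, a leucine-rich repeat receptor kinase, was at 5.97, 19.1 and 4.01 FPKM. CRK2, a cysteine-rich receptor kinase, was at 6.88, 16.7 and 8.79 FPKM. AT3G45330, a lectin receptor kinase, was at 4.17, 10.3 and 3.76 FPKM. The receptor kinase genes of this group lay at low levels except for AT5G45840, a leucine-rich repeat kinase at 32.6, 60.9 and 23.5 FPKM. AT3G09010 was at 5.31, 14.97 and 5.52 FPKM. The group is a small part of its superfamily, in which 429 protein kinase genes were measured: 30 came up and 45 came down by 6 h by the authors' call, and 208 came down from 6 to 24 h against 22 that came up. Over all rows 3.81% came up and 8.31% came down by 6 h, and 22.8% came down and 20.9% came up from 6 to 24 h.

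WAKL4 and WAKL5, whose products are anchored in the cell wall, lie next to each other on chromosome 1. WAKL4 was at 4.82, 13.5 and 4.43 FPKM, and WAKL5 was at 5.80, 11.98 and 3.24 FPKM, so both peaked at 6 h and WAKL5 ended called lower than its start. Of the other genes in the cluster, WAKL6 was at 1.22, 3.45 and 3.31 FPKM, WAKL1 at 1.39, 1.68 and 0.728 FPKM, and WAKL2 at 0.526, 2.30 and 1.20 FPKM. WAKL3 was at 0.387, 1.12 and 0.531 FPKM. All 4 lay below the minimum mean. The gene after WAKL5, AT1G16170, was at 74.3, 67.8 and 70.2 FPKM and did not share the peak.

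Hormone-conjugating and ethylene-forming enzymes came as 2 pairs. GH3.1 and BRU6 encode GH3 proteins, of the family that conjugates auxin to amino acids and is itself induced by auxin. GH3.1 was at 6.04, 20.1 and 1.96 FPKM, and BRU6, also known as GH3.2, was at 8.77, 22.7 and 11.7 FPKM. GH3.1 was called lower at 24 h against 0 h and BRU6 was not called. Of the 7 measured genes of the early auxin response list, these 2 were called higher at 6 h, against 3.81% of all rows. The rule chose both on that contrast, so nothing is read from this count. From 6 to 24 h, 6 of the 7 were called lower, these 2 among them, as were 22.8% of all rows. IAA1 at 44.5, 56.5 and 18.1 FPKM and IAA19 at 9.72, 13.6 and 6.19 FPKM, both Aux/IAA repressors, were not called at 6 h and were called lower by 24 h. ACS2 and ACS11 encode ACC synthases, which make the precursor of ethylene. ACS2 was at 6.58, 12.3 and 6.23 FPKM and ACS11 at 7.05, 15.6 and 5.18 FPKM. The other measured genes that carry an ACC synthase product name, ACS7, ACS12 and ACS5, were not called at 6 h. ACS5 was at 24.4, 18.7 and 2.96 FPKM.

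Detoxification and defence proteins were the largest group, with 11 genes. At 24 h against 0 h, 4 of them were called lower and 1 higher, against 27.9% and 24.3% of all rows. GSTF7 and GSTF2, phi-class glutathione transferases that are induced by pathogens and oxidative stress, were at 11.8, 27.2 and 6.87 FPKM and at 33.4, 64.2 and 17.5 FPKM. Both ended called below 0 h. GSTF6, the neighbour and close copy of GSTF7, was at 17.3, 28.8 and 10.7 FPKM and missed the threshold for the rise, while GSTF9 was at 373, 307 and 684 FPKM. The phi class thus held opposite courses among its 6 measured genes. DOX1, an alpha-dioxygenase that makes fatty acid hydroperoxides in defence, was at 75.8, 164 and 53.3 FPKM. RNS1, a secreted ribonuclease induced by wounding and phosphate starvation, was at 9.04, 21.2 and 1.83 FPKM. Its 24 h value was the furthest below 0 h of all 82 genes, by -1.83 on the log2(FPKM + 1) scale. AT5G22140, an FAD-dependent oxidoreductase, was at 77.1, 196 and 53.0 FPKM and was called lower at 24 h. AT1G30700, a berberine bridge enzyme-like oxidase, was at 80.7, 225 and 126 FPKM and was the 1 called higher.

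None of the remaining defence-type genes was called at 24 h against 0 h. The chitinase family gene AT2G43620 was at 2.71, 11.8 and 2.29 FPKM. The lectin gene AT5G49850 was at 5.73, 18.1 and 6.74 FPKM, and MLO14, of the family of powdery mildew susceptibility proteins, was at 16.6, 37.3 and 17.5 FPKM. The defensin-like gene AT4G11393 was at 35.2, 84.9 and 28.4 FPKM. LCR37, a small cysteine-rich secreted protein, was at 1.67, 48.4 and 19.4 FPKM, yet was not called at 6 h, and the authors' deposited table gives it a q-value of 0.382 there. On a list of detoxification genes known as targets of TGA factors, 1 of 18 measured genes, GSTF7, was among the 82. At 6 h 3 were called higher, GSTF7 among them, and 5 lower, against 3.81% and 8.31% of all rows. From 6 to 24 h 16 were called lower, against 22.8% of all rows.

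Both calcium genes ended above their start. CML11, a calmodulin-like calcium sensor, was at 33.4, 92.5 and 50.1 FPKM. AT5G57010, a calmodulin-binding protein, was at 2.38, 11.4 and 4.80 FPKM. Both were called higher at 24 h against 0 h, with q-values of 0.0174 and 0.00379 in the authors' deposited table. None of the 10 genes on the touch and wounding list was among the 82, and 8 of them were called higher at 24 h against 0 h, as were 24.3% of all rows.

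The 10 genes of the cell wall and the lipid barrier had steep rises. Their median rise of 1.74 on the log2(FPKM + 1) scale was above the 1.17 of all 82. All 10 ended above their 0 h value, and 1 was called higher at 24 h against 0 h, as were 24.3% of all rows. The side of 0 h depended on transcript length: with the length trend removed 4 of the 10 ended below 0 h, and the median difference between 24 and 0 h went from 0.45 to 0.12. EXPA1, an expansin that loosens the wall, was at 28.2, 88.9 and 32.4 FPKM. ABCG6 and FAR5 belong to the making of suberin, the waxy barrier of root cells: ABCG6 exports its precursors and was at 2.28, 9.39 and 3.48 FPKM. FAR5, a fatty acid reductase that makes its primary alcohols, was at 2.78, 8.72 and 4.46 FPKM. The suberin genes thus lay low at both ends. AT5G12420, a wax ester synthase-like acyltransferase, was at 7.97, 23.5 and 9.69 FPKM, and AT1G28660, a GDSL lipase, was at 9.35, 23.1 and 9.93 FPKM. AT1G26200, with a lipid-sensing TLC domain, was at 1.98, 10.95 and 2.53 FPKM.

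The structural proteins of this group had some of the steepest rises. AT1G55990 and AT4G33610, both glycine-rich, were at 9.35, 45.7 and 15.2 FPKM and at 16.1, 67.5 and 22.4 FPKM. PELPK2, a hydroxyproline-rich glycoprotein, was at 5.80, 26.7 and 9.29 FPKM. AT5G07475, a cupredoxin, was at 10.2, 38.3 and 18.6 FPKM and was the 1 called higher at 24 h, for which the authors' deposited table gives a q-value of 0.0123. Its difference of 0.80 between 24 and 0 h fell to 0.14 on the log2(FPKM + 1) scale once the trend with transcript length was removed. The glycine-rich product name itself was no marker of the course, since 2 of 23 measured genes that carry it were called higher at 6 h and 9 were called higher from 6 to 24 h, against 3.81% and 20.9% of all rows.

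Membrane and transport genes numbered 5 and none was called at 24 h against 0 h, where 27.9% of all rows were called lower and 24.3% higher. KUP6, a potassium transporter, was at 43.6, 77.1 and 33.4 FPKM, and AT2G25737, of the sulfite exporter class, was at 15.03, 47.3 and 20.03 FPKM. UMAMIT35, of a family that moves amino acids, was at 5.71, 12.8 and 5.95 FPKM. HHP1, a heptahelical membrane protein, was at 5.19, 11.6 and 5.50 FPKM, and EXO70H2, a subunit of the exocyst that tethers secretory vesicles, was at 5.04, 9.82 and 3.35 FPKM. Their differences between 24 and 0 h lay between -0.47 and 0.39 on the log2(FPKM + 1) scale.

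A further 8 genes encode enzymes of metabolism and protein turnover or related proteins, and they split evenly around their start, 4 below and 4 above. PPDK, the pyruvate orthophosphate dikinase that turns pyruvate into phosphoenolpyruvate, was at 1.74, 15.7 and 7.42 FPKM, a 9.06-fold rise. It was called higher at 24 h, as were the cysteine protease gene CP1 at 21.9, 90.6 and 35.1 FPKM and the zinc-binding dehydrogenase gene AT5G37980 at 3.33, 11.2 and 5.96 FPKM. HSP90.1, a heat-inducible chaperone, was at 5.49, 11.5 and 3.48 FPKM, and the U-box gene AT2G45920 was at 12.8, 24.5 and 8.88 FPKM. Both were called lower at 24 h. Against 0 h, 27.9% of all rows were called lower and 24.3% higher at that time. HSP70, the other measured gene of the heat shock list, was at 13.2, 17.38 and 5.18 FPKM and was not called at 6 h. SUFE2, of iron-sulfur cluster assembly, was at 11.5, 26.9 and 12.2 FPKM. The RNA-binding protein gene AT1G20880 was at 8.72, 20.3 and 8.20 FPKM, and the RING/U-box gene AT3G19895 was at 12.1, 22.4 and 9.85 FPKM.

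**Figure D3:**
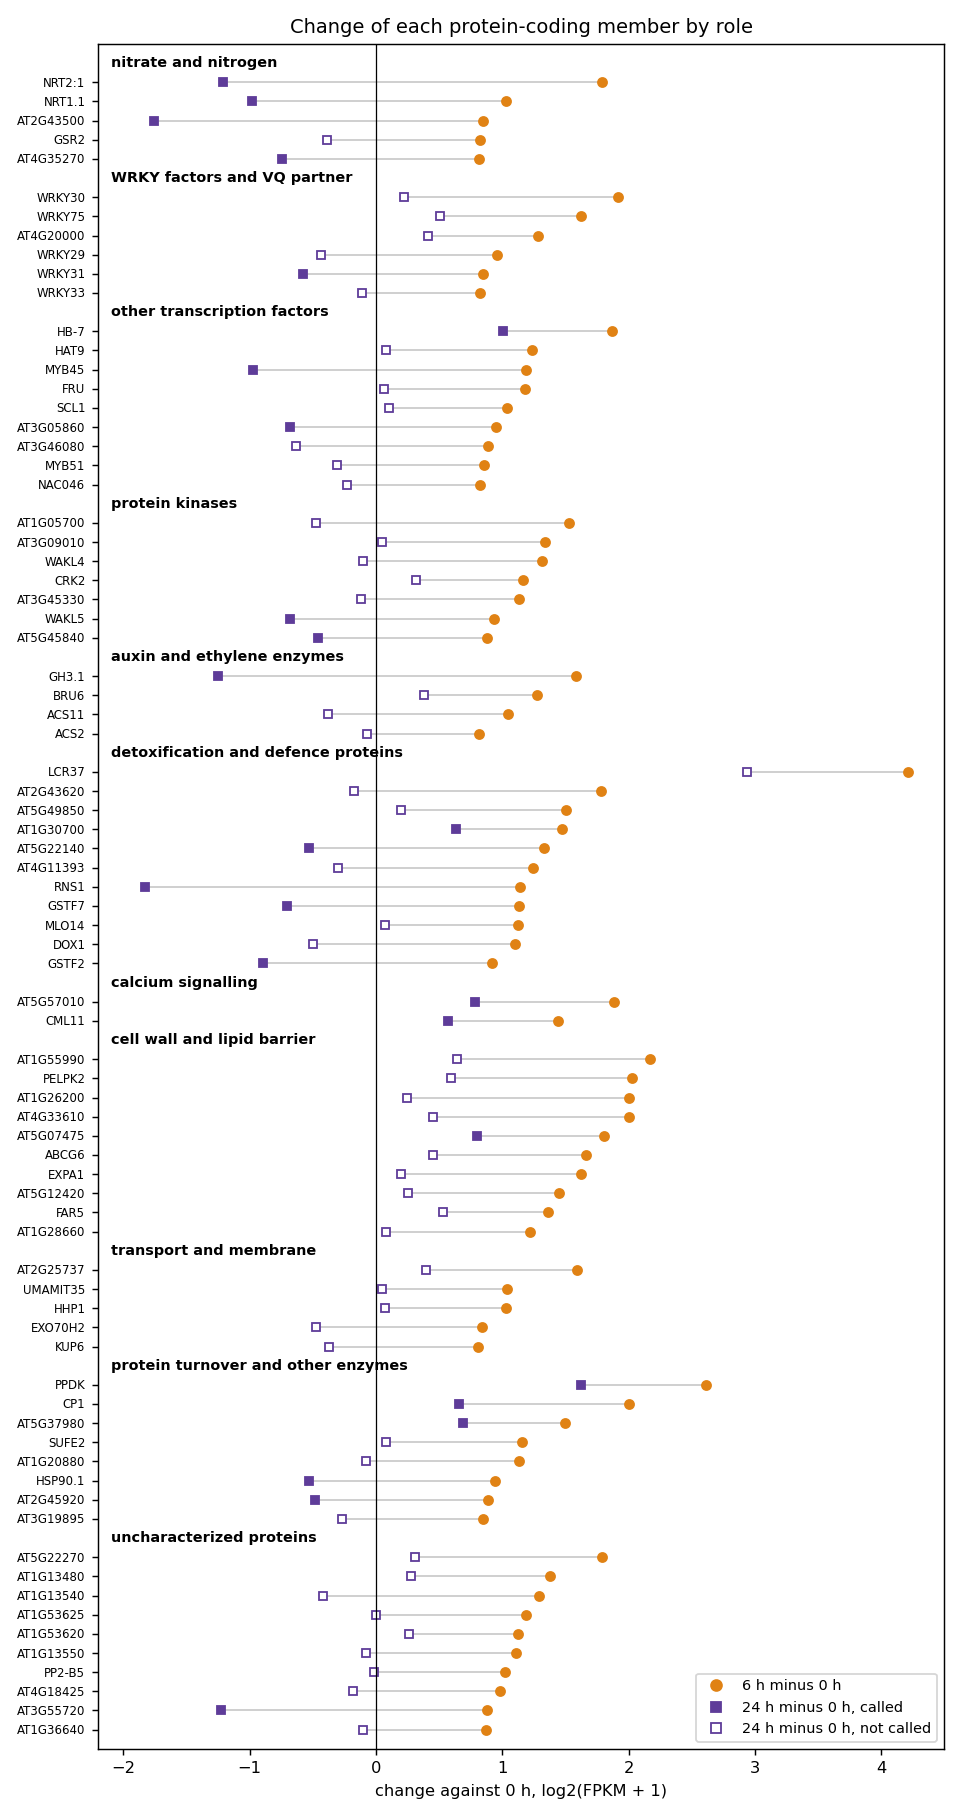
Change against 0 h on the log2(FPKM + 1) scale (x axis) for each of the 77 protein-coding genes, grouped by role (y axis). Circles are 6 h minus 0 h and squares are 24 h minus 0 h, filled where called by the authors; squares of the 5 nitrogen genes lie left of 0 and those of the 10 wall and lipid genes right of it, 4 of which end below 0 h once the length trend is removed.

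Of 10 uncharacterized proteins, 9 were called in both directions of the rule, a pair of calls made for 1.65% of all rows. The rule used both contrasts, so nothing is read from this count. AT3G55720, at 18.1, 34.2 and 7.17 FPKM, was the 1 called lower at 24 h against 0 h, as were 27.9% of all rows. AT1G53625 was the most abundant at 58.8, 135 and 58.8 FPKM, and so came back to its start. Its neighbour AT1G53620 was at 7.95, 18.5 and 9.75 FPKM, and the next gene, AT1G53610, was at 18.3, 39.7 and 30.1 FPKM. These 3 short genes on chromosome 1 shared the rise and differed in the fall. AT5G22270 was at 3.91, 16.0 and 5.10 FPKM, PP2-B5, which carries a phloem lectin name, was at 5.76, 12.7 and 5.67 FPKM, and the membrane protein gene AT4G18425 was at 9.35, 19.4 and 8.14 FPKM. AT1G36640 was at 6.61, 12.9 and 6.08 FPKM and was not called in any comparison.

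Among the uncharacterized genes, 3 encode DUF1262 proteins and sit in one stretch of chromosome 1. AT1G13480 was at 9.54, 26.4 and 11.8 FPKM, AT1G13540 at 4.35, 12.1 and 3.004 FPKM, and AT1G13550 at 3.77, 9.25 and 3.51 FPKM. The fourth measured gene of this family, AT1G13530, was at 14.9, 25.2 and 16.2 FPKM. All 4 were called higher at 6 h and lower from 6 to 24 h, a pair of calls made for 1.65% of all rows. The rule chose 3 of the 4 on those contrasts, and the family was picked after the values were seen, so nothing is read from this count. None of the 4 was called at 24 h against 0 h. AT1G13520, below the minimum mean, was at 1.60, 3.44 and 1.93 FPKM. AT1G13470 was listed at 0 at all times, and the flanking AAPT1, a phospholipid enzyme gene, was at 42.5, 47.5 and 63.0 FPKM. AT1G13530, which did not meet the rule, thus also had its highest value at 6 h, and AAPT1 beside these genes did not. Across the 82 genes 3 pairs were direct neighbours, AT1G13540 with AT1G13550, WAKL4 with WAKL5 and AT1G53620 with AT1G53625. Each pair lies on one strand, and AT1G13480 lies 6 genes from AT1G13540.

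**Figure D4:**
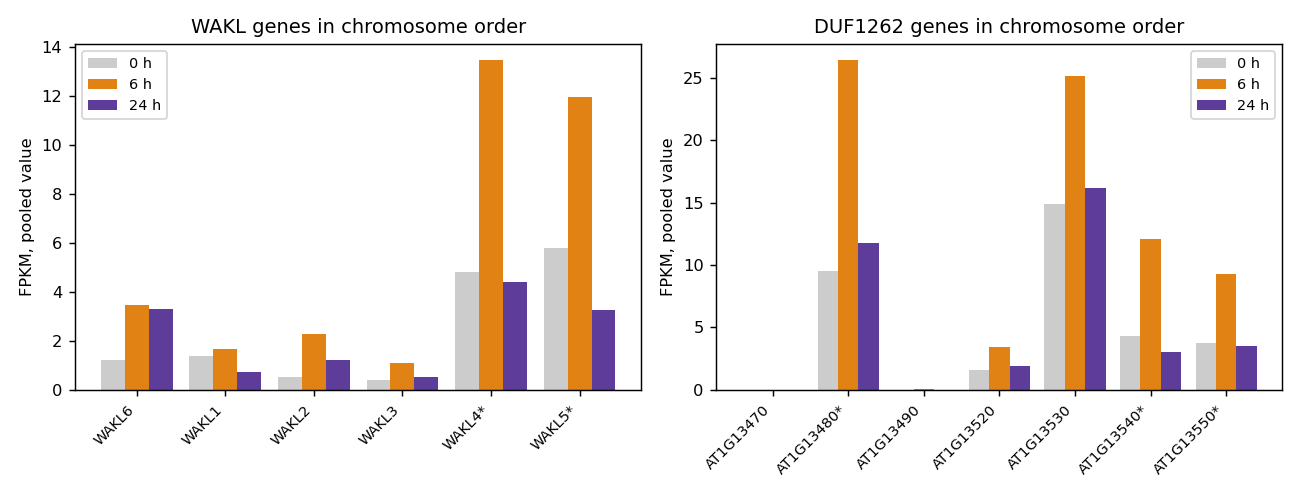
Pooled FPKM (y axis, from 0) at 0, 6 and 24 h of the WAKL genes (left) and the DUF1262 genes (right) in their order along chromosome 1; an asterisk marks the genes that met the rule. The 6 h bar is the highest for WAKL4 at 13.5 FPKM and for AT1G13480 at 26.4 FPKM.

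Of the 5 members that do not encode proteins, 1 was called in either contrast of the rule. The snoRNA genes AT1G74456 and AT2G20721 were listed at 0 at both 0 and 24 h and at 24.3 and 22.1 FPKM at 6 h, with q-values of 1 in the authors' deposited table. Their annotated lengths of 82 and 91 bases are below the 100 bp read length, so these values are not read as levels. The snoRNA gene AT4G39366 was at 18.5, 39.3 and 6.03 FPKM, and the pseudogene AT2G35743 was at 5.16, 9.92 and 2.36 FPKM, neither called. The libraries were selected for polyadenylated RNA, which these short RNAs mostly lack, and none of 14 measured snoRNA genes was called in any comparison. The noncoding gene AT5G59732 was called in all 3, at 13.2, 30.5 and 7.88 FPKM. It lies antisense to EXO70H7, which was at 4.33, 11.5 and 7.82 FPKM, and 99.5% of its 100-base stretches occur in that gene. Of the 82 genes 6 (7.32%) have transcripts under 500 bases, against 1.06% of all rows and 7.65% of the other genes that rose.

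Sequence shared with other genes also touches several protein-coding members. On the other strand, 45.2% of the 100-base stretches of GSTF2 occur in TOC159, which was at 13.96, 16.4 and 15.4 FPKM, and 95.4% of those of EXO70H2 in AT2G39375. NRT2:1 shares 3.53% with its neighbouring paralogue, GSTF7 shares 1.53% with GSTF6 and AT5G37980 shares 1.39% with AT5G37940. WRKY29 shares 11.7% with the overlapping GH9B15, AT5G49850 shares 18.7% with AT5G49840 and AT5G22140 shares 18.9% with AT5G22145. MLO14 shares 3.22% with genes that overlap it. The kit marks strand, but whether counting used it is not given in the sources used here, so for EXO70H2 and AT5G59732 the source of the reads cannot be told apart from the gene on the other strand.

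Promoters of the 77 protein-coding genes were searched over 300 bases, 250 before to 50 after the annotated start, on both strands, and set beside the 166 other protein-coding genes that rose and all 12835 protein-coding genes. The core TGACG of TGA factors was found in 27.3% of the 77 windows, 36.7% of the other risers and 23.9% of all. Its palindrome TGACGTCA, which contains the core, was found in 1.30%, 4.22% and 0.756%. The share of windows with a TGA core was thus nearer to that of all genes in the transient genes than in the other risers. The W-box, as TTGACC or TTGACT, was found in 42.9%, 39.8% and 34.0% of windows. At least 2 W-boxes were found in 18.18% of the 77, in 14.5% of the other risers and in 8.04% of all. The G-box CACGTG was found in 1.30%, 6.02% and 8.86%.

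Shares of the remaining motifs were as follows, without a test. The evening element AAATATCT was found in 9.09% of the 77, 4.82% of the other risers and 5.97% of all. The auxin elements TGTCTC or TGTCGG were found in 20.8%, 16.9% and 18.3%, and the heat element GAANNTTC in 12.99%, 15.1% and 11.001%. The GCC box GCCGCC was found in 2.60%, 2.41% and 2.52%, and GAATC, a motif of nitrate-inducible NIGT1 repressors, in 40.3%, 39.8% and 44.5%. The longer GAATATTC was found in 1.30%, 0.602% and 1.08%. Median GC content lay between 30% and 31.3% in the 3 groups of windows. A match describes letters in a window, and whether any factor binds there was not measured.

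**Figure D5:**
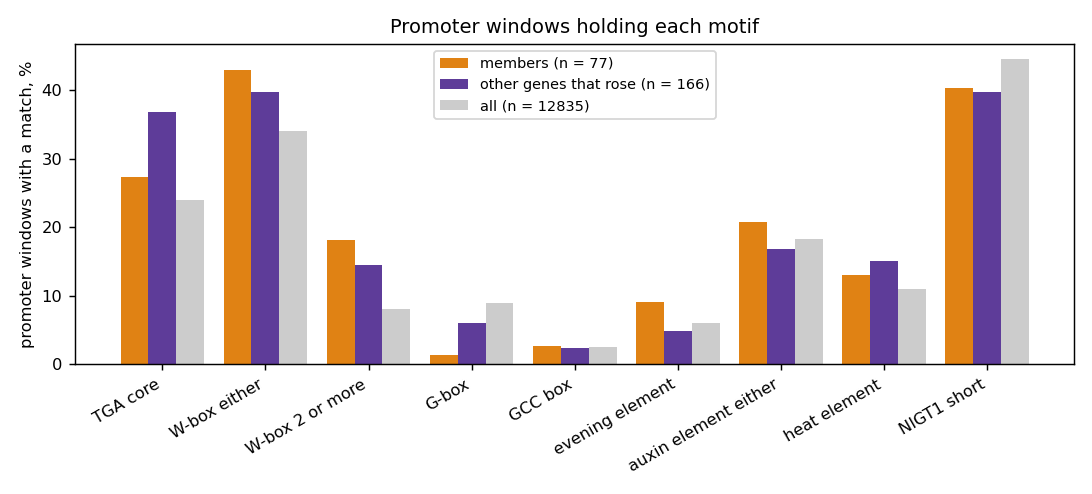
Share of promoter windows of 300 bases holding each motif (y axis, %, from 0) for the 77 protein-coding genes with a transient rise, the 166 other protein-coding genes that rose and all 12835 protein-coding genes. The share with at least 2 W-boxes is 18.18%, 14.5% and 8.04%, and that with the TGA core 27.3%, 36.7% and 23.9%.

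The remaining lists of responses held few or none of the 82. No gene of the lists for fermentation and low oxygen, type-A cytokinin response regulators, the circadian clock, sulfur assimilation, phosphate starvation or flavonoid synthesis was among them. At 6 h none of 5, 6, 6, 6 and 6 measured genes of the fermentation, cytokinin, clock, sulfur and flavonoid lists was called higher. Of 6 phosphate starvation genes 1 was called higher, against 3.81% of all rows. From 6 to 24 h all 6 sulfur genes and 5 of 6 phosphate genes were called lower, against 22.8% of all rows. The 5 include the phosphate gene called higher at 6 h. A late fall was thus also made by genes not called higher at 6 h, the 6 sulfur genes among them.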

How the data were processed

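Poly(A)-selected, strand-marked single-end libraries with 100 bp reads were made from 3 replicates at each of 3 times, per the labels' protocols. Reads were processed with TopHat2 2.0.13, Cufflinks 2.1.1 and Cuffdiff on TAIR10, per the submitters' processing notes. The deposited table holds 1 value per gene and time, taken here as FPKM from its range and the tools named, with the authors' log2 fold changes and q-values for 3 comparisons. The authors' log2 fold changes equal the log2 ratio of the values within 0.001 for at least 99.995% of rows. Depth per library is unknown, so no interval or floor is given.

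Changes were computed as differences of log2(FPKM + 1), which understates changes of low genes, with python 3.11.15, pandas 2.3.3 and numpy 2.4.6; figures used matplotlib 3.10.9. Calls are the authors' q-values below 0.05, the smallest of which is 0.000358, and 69 and 66 of the 82 genes sit at it in the comparisons of 6 h with 0 h and of 24 h with 6 h. Rows of more than 1 locus (282) were left out, and the share of all rows called is given for each comparison. The tests per replicate that had been planned were replaced by these calls, since no values per replicate are in the table used here. The scripts were tested on simulated data. Members, the 17 lists and the named genes were chosen with earlier results of these data known, and the grouping by role and the families after the values were seen. Named genes were PAN, members on a list, members with the largest changes or the highest 6 h levels, those nearest the thresholds, those of known role and, for lists holding at least 2 members, other called genes; the remaining members and the neighbouring genes were added after their values were seen. Names, coordinates and promoters are from RefSeq's TAIR10.1, matched by locus for 13013 of 13055 rows. Alternatives covered the pseudocount, minimum mean, thresholds, scaling, transcript length and adjustment.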

Additional observations from a re-analysis of the deposited data

How the results depend on the processing

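The number of genes meeting the rule was set mostly by its thresholds. It moved from 82 to 137 at a minimum mean of 1, 155 with no minimum and 50 at a minimum of 10. It was 146 at a change threshold of 0.6 and 46 at 1. It stayed within 1.5 times under a pseudocount of 0.1 (96), quantile normalization (83), median-of-ratios scaling (88), removal of the length trend (95, of which 72 were among the 82), the authors' own log2 fold changes (97) and their q-values (76). With transcripts of at least 500 bases, a setting chosen after seeing the data, it was 76. At a q-value below 0.01, 10 genes were called lower and 5 higher at 24 h against 0 h. List genes among the members were 7, and 11 at a minimum mean of 1. In all, 21 of 29 alternatives for counts stayed within 1.5 times, and 104 of 104 alternatives for the 26 genes called at 24 h against 0 h kept the sign. With the length trend removed, 57 and not 44 genes ended below 0 h. No paired analysis was possible because replicates were merged into 1 number per gene at each time, and for the same reason no replicate could be left out. Arms of mock treatment were not analysed here, and the depth behind each value is unknown.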
